A study of Homo sapiens with 4 samples.

Results

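The 10 CACNA1 genes encode the alpha-1 subunits of voltage-gated calcium channels, the large proteins that form the pore and sense voltage. They were taken by symbol from the deposited gene tables, and all 10 were found among 28307 gene symbols. Levels and the effect of CRISPR interference (CRISPRi) were described for the L type (CACNA1C, CACNA1D, CACNA1F, CACNA1S), P/Q type (CACNA1A), N type (CACNA1B), R type (CACNA1E) and T type (CACNA1G, CACNA1H, CACNA1I).

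RNA was sequenced from i3N-WTC11 neurons, excitatory neurons differentiated from the human induced pluripotent line WTC11. The 2 CRISPRi libraries came from neurons given lentivirus with guide RNAs against a transposable element (MIR family) on chromosome 11, with 2 guides per element. The 2 control libraries came from neurons given the empty guide vector. Both groups carried dCas9-KRAB, a repressor without cutting activity, under a CAG promoter in an intron of CLYBL. Both received virus at 2 weeks, at a multiplicity of infection of about 3, and puromycin at 0.5 μg/mL for 4 days. Both were collected 7 days after the virus. The element is placed at chromosome 11 from 47605296 to 47605575 or from 47608036 to 47608220. The 10 CACNA1 genes lie on 9 other chromosomes, and 0 of them on chromosome 11. All 4 libraries derive from 1 cell line, so they do not cover variation between people.

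An alpha-1 subunit folds into 4 homologous repeats whose pore loops meet in the middle. T type channels open near the resting potential, and L, P/Q, N and R type channels need stronger depolarization than T type to open. In neurons, P/Q and N type channels at the terminal admit the calcium that triggers transmitter release, R type channels add to release and to dendritic calcium, L type channels couple activity to gene transcription, and T type channels support rebound and burst firing. CACNA1S is the alpha-1 subunit of skeletal muscle and CACNA1F that of the retina.

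The split between T type and the other genes is visible in the coding sequence of the pore. Each repeat gives 1 acidic residue to the ring that selects calcium. In the longest coding sequence of GENCODE release 29, translated and searched for that residue, 4 sites were found in every gene. The 7 genes of L, P/Q, N and R type encoded glutamate (GAA or GAG) at 4 of 4 sites, and the 3 T type genes encoded glutamate at 2 and aspartate (GAT or GAC) at 2, in the third and the fourth repeat. The codon of the third repeat stands in capitals below, within 21 bases of coding sequence that lie in 1 exon, on GRCh38, so that the 3 T type genes can be set beside the others.
CACNA1G (T type, chr17:50606924-50606944, plus strand): gcctccaagGATggttgggtg
CACNA1H (T type, chr16:1211740-1211760, plus strand): tcatccaagGATggatgggtg
CACNA1I (T type, chr22:39668316-39668336, plus strand): gcatccaagGATggttgggtg
CACNA1A (P/Q type, chr19:13259566-13259586, minus strand): tccacgggaGAAggctggcca
CACNA1B (N type, chr9:138057847-138057867, plus strand): tccacgggaGAAggctggccc
CACNA1E (R type, chr1:181756071-181756091, plus strand): tccacagggGAAggatggcct
CACNA1C (L type, chr12:2607108-2607128, plus strand): tccaccttcGAAgggtggcca
CACNA1D (L type, chr3:53747426-53747446, plus strand): tccacgtttGAGggctggcct
CACNA1F (L type, chrX:49216384-49216404, minus strand): tccacctttGAAggctggcct
CACNA1S (L type, chr1:201061946-201061966, minus strand): tccaccttcGAGggatggcct

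The translated proteins, 1873 residues long for CACNA1S and 2512 for CACNA1A at the extremes, fall into the same 3 subfamilies by identity. Aligned residues were identical at 62.5% to 70.1% among the 4 L type proteins, at 61.5% to 67% among P/Q, N and R type, and at 60.2% to 62.9% among T type. Between L type and the P/Q, N and R group the range was 44.1% to 47%, and T type shared 30.7% to 33.8% with either.

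**Figure D1:**
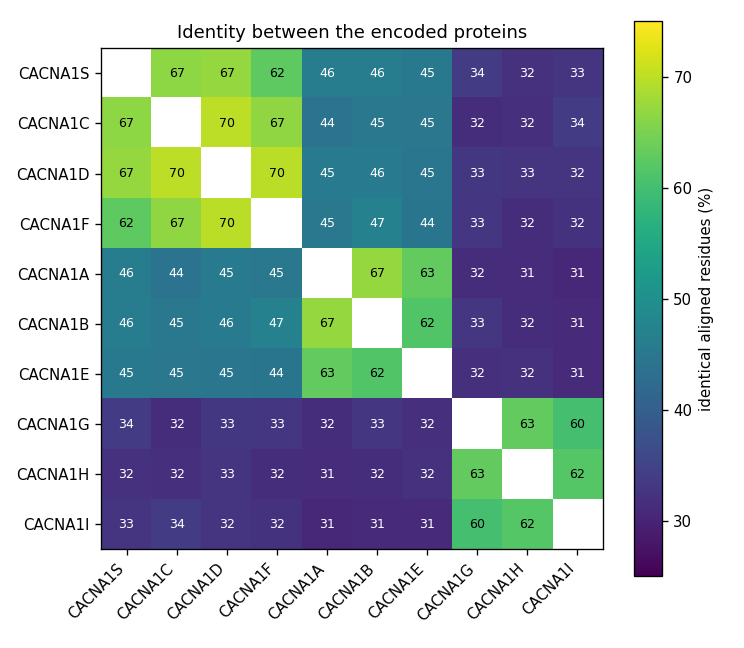
Percent of aligned residues that are identical between the proteins encoded by the longest GENCODE coding sequences of the 10 CACNA1 genes, one gene per row and column, with a colour scale in percent. The 3 blocks along the diagonal are L type, then P/Q, N and R type, then T type, all at 60.2% or more, against 47% or less elsewhere.

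Depth set what could be seen. CRISPRi replicates 1 and 2 held 44839748 and 41560282 counts, control replicate 1 held 944993 and control replicate 2 held 39325038. In control replicate 1 a single count equals 1.06 CPM (counts scaled to a library total of 1e6), and 3 counts equal 3.17 CPM. For a gene with 0 counts there, the Poisson interval, which covers counting error only, reaches 3.9 CPM. That library also stood apart in its composition. Summed over 6 markers of dividing cells (MKI67, TOP2A, AURKB, CCNB1, CDK1, BUB1), levels were 38.5 and 41.4 CPM under CRISPRi versus 251 CPM (replicate 1) and 41.6 CPM (replicate 2) in controls. The 8 neuronal markers, among them NEFM, STMN2 and TUBB3, summed to 14507 and 15267 CPM under CRISPRi versus 12966 CPM (replicate 1) and 14811 CPM (replicate 2) in controls. Fold changes are therefore given with and without control replicate 1.

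The labelled cell type was checked against its markers. All 8 neuronal and all 4 glutamatergic markers had counts in every library, SLC17A6 and SLC17A7, the vesicular glutamate transporters, at 145 to 362 CPM. GAD1 and GAD2, the enzymes that make GABA, were at 0 to 0.433 CPM, but the vesicular GABA transporter SLC32A1 was at 6.76 and 6.93 CPM under CRISPRi versus 4.23 CPM (replicate 1) and 6.66 CPM (replicate 2) in controls. The sensory and brainstem transcription factor POU4F1 (388 to 442 CPM) and the peripheral filament PRPH (272 to 332 CPM) were also present, although the label is excitatory neurons.

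Of the 10 genes, 9 had counts in at least 3 libraries. To compare genes with each other, CPM was divided by the length of the longest GENCODE transcript, in kilobases. Averaged over the 3 deep libraries, this level was 20.8 for the T type gene CACNA1H, 17.2 for the N type gene CACNA1B, 13.8 for the P/Q type gene CACNA1A and 7.7 CPM per kb for the R type gene CACNA1E. It was 2.88 for CACNA1C, 1.89 for CACNA1D, 1.19 for CACNA1I, 0.418 for CACNA1G and 0.0353 CPM per kb for CACNA1S. Among 18520 genes with a count and a GENCODE length, CACNA1H stood at percentile 83.4, CACNA1B at 80.3, CACNA1A at 76.4 and CACNA1E at 64.8, whereas CACNA1C and CACNA1D stood at 48.1 and 42.6.

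**Figure D2:**
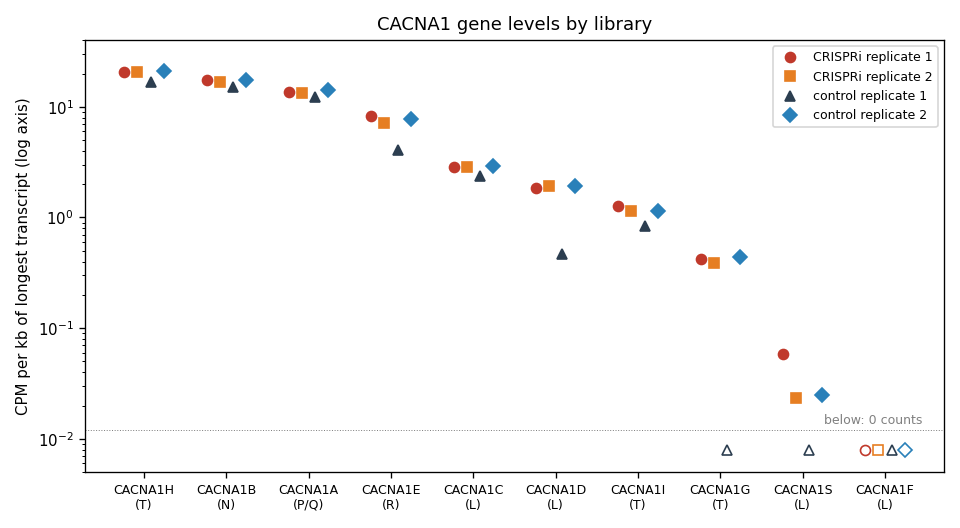
Level of each CACNA1 gene in CPM per kb of its longest transcript (log axis), 1 symbol per library, genes in order of their mean in the 3 deep libraries with the channel type in brackets. Open symbols under the dotted line mark 0 counts; CACNA1H, CACNA1B and CACNA1A sit between 12.2 and 21.1, and CACNA1F has 0 counts in every library.

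In the 3 deep libraries the ranges of neighbouring genes in this order did not overlap. Over all 4 libraries they overlapped for CACNA1H and CACNA1B, for CACNA1D and CACNA1I, for CACNA1G and CACNA1S, and for CACNA1S and CACNA1F. CACNA1H was above CACNA1B in 4 of 4 libraries, with a ratio of 1.21 between the deep means. The order also rests on the length used. CACNA1E has a longest transcript of 16171 bp but a coding length of 6939 bp. Per kilobase of coding length it stood at 19.2 and 16.6 CPM under CRISPRi versus 9.46 CPM (replicate 1) and 18.1 CPM (replicate 2) in controls, and so above CACNA1A in the deep libraries (15.8 and 15.3 CPM under CRISPRi versus 16.5 CPM in control replicate 2). On that scale CACNA1H and CACNA1B exchanged places in 2 of 4 libraries. These were CRISPRi replicate 1 (23.9 and 24.5 CPM per coding kb) and control replicate 1 (19.5 and 21.3 CPM per coding kb).

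The release channels came first by role. CACNA1A, the pore of the P/Q type channel, was at 119 and 115 CPM under CRISPRi versus 106 CPM (replicate 1) and 124 CPM (replicate 2) in controls. CACNA1B, the N type pore, was at 172 and 164 CPM under CRISPRi versus 149 CPM (replicate 1) and 169 CPM (replicate 2) in controls. For both genes control replicate 1 was the lowest library, and control replicate 2 was the highest for CACNA1A and second for CACNA1B. The R type gene CACNA1E was at 133 and 115 CPM under CRISPRi versus 65.6 CPM (replicate 1) and 125 CPM (replicate 2) in controls. Control replicate 2 lay between the CRISPRi libraries, and control replicate 1 lay far under all 3. In such bulk samples fewer cells that express a gene and less of its RNA per cell cannot be told apart.

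Among T type genes the level per kb was by far highest for CACNA1H, at 20.8 against 1.19 for CACNA1I and 0.418 CPM per kb for CACNA1G in the deep libraries. CACNA1H was at 169 and 169 CPM under CRISPRi versus 138 CPM (replicate 1) and 173 CPM (replicate 2) in controls. Control replicate 1 was its lowest library, and the other 3 lay close together. CACNA1I was at 12.7 and 11.4 CPM under CRISPRi versus 8.47 CPM (replicate 1) and 11.5 CPM (replicate 2) in controls. CACNA1G had 153 and 132 counts (3.41 and 3.18 CPM) under CRISPRi versus 0 counts (replicate 1) and 142 counts (replicate 2, 3.61 CPM) in controls. The Poisson interval of the 0 counts in control replicate 1 reached 3.9 CPM, above the other 3 libraries, whose mean predicts 3.21 counts there.

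Of the L type genes, CACNA1C was at 38.6 and 38.3 CPM under CRISPRi versus 31.7 CPM (replicate 1) and 39.3 CPM (replicate 2) in controls. CACNA1D was at 16.7 and 17.1 CPM under CRISPRi versus 4.23 CPM (replicate 1) and 17.3 CPM (replicate 2) in controls, from 4 counts in control replicate 1. The 3 deep libraries lay close together for CACNA1D, and control replicate 1 lay under all of them. CACNA1S, the muscle subunit, had 16 and 6 counts under CRISPRi versus 0 (replicate 1) and 6 counts (replicate 2) in controls. Skeletal muscle markers were near 0 as well, at 0 to 0.89 CPM summed over 6 genes, with MYH1, MYH2 and MYOD1 at 0 in every library. CACNA1F, the retinal subunit, had 0 counts in all 4 libraries. Its Poisson interval reached 0.0823 and 0.0888 CPM under CRISPRi versus 3.9 CPM (replicate 1) and 0.0938 CPM (replicate 2) in controls. The summed markers of photoreceptors and bipolar cells were at 5.51 and 6.38 CPM under CRISPRi versus 0 CPM (replicate 1) and 7.09 CPM (replicate 2) in controls, mostly from NRL, a photoreceptor transcription factor, at 4.62 to 5.44 CPM in the deep libraries.

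Some of these counts carry limits from the annotation. The only row for CACNA1C in the files lies on a fix contig of chromosome 12 and not on the chromosome itself, with a deposited FPKM (a value per kilobase and library size) of 0 beside 1729, 1592, 30 and 1544 counts. CACNA1C is among 1579 symbols whose only rows are on contigs, of the fix or another kind, and not on a primary chromosome. No source used here states how reads that match both the contig and the chromosome were assigned. Genes on the opposite strand overlap CACNA1C, CACNA1D, CACNA1G and CACNA1H. Of those whose rows overlap in the files, counts were small in the deep libraries, with CACNA1G-AS1 at no more than 5.63% of CACNA1G, TPSG1 at no more than 0.697% of CACNA1H, and CHDH at 2, 2 and 7 counts beside CACNA1D. In control replicate 1, where CACNA1D had 4 counts, CHDH had 2. Larger neighbours meet only the longer GENCODE spans, not the rows in the files. They are DCP1B at CACNA1C, with 1071 and 944 counts under CRISPRi versus 13 (replicate 1) and 892 counts (replicate 2) in controls, and DCP1A at CACNA1D, with 2362 and 2064 counts under CRISPRi versus 61 (replicate 1) and 1950 counts (replicate 2) in controls.

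The files also list RefSeq transcripts beside each gene, without a stated meaning. For CACNA1C they list 9 and 7 of 23 curated transcripts under CRISPRi versus 3 (replicate 1) and 4 (replicate 2) in controls. For CACNA1A they list 3 and 3 of 5 under CRISPRi versus 2 (replicate 1) and 3 (replicate 2) in controls. No splice form was quantified.

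Summed by class, T type made up the largest share of the alpha-1 level per kb. T type took 33.5% and 34.6% under CRISPRi versus 33.9% (replicate 1) and 33.9% (replicate 2) in controls. N type took 26.4% and 26.1% under CRISPRi versus 29.3% (replicate 1) and 25.9% (replicate 2) in controls. P/Q type followed with 20.6% and 20.8% under CRISPRi versus 23.5% (replicate 1) and 21.4% (replicate 2) in controls. The order T, N, P/Q, R, L held in all 4 libraries on this scale. R type took 12.4% and 11.1% under CRISPRi versus 7.81% (replicate 1) and 11.6% (replicate 2) in controls. L type took 7.19% and 7.46% under CRISPRi versus 5.46% (replicate 1) and 7.27% (replicate 2) in controls.

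The groups overlapped for L, N, R and T type. P/Q type was lower in both CRISPRi libraries than in both controls, at 20.7% ± 0.123 in CRISPRi and 22.5% ± 1.48 in controls (mean ± SD, n = 2 each). Its two-sided exact permutation p was 0.33, the smallest that 2 libraries against 2 can give. That p was 0.667 for L and R type and 1 for N and T type, and each became 1 when adjusted over the 5 classes (Benjamini-Hochberg).

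**Figure D3:**
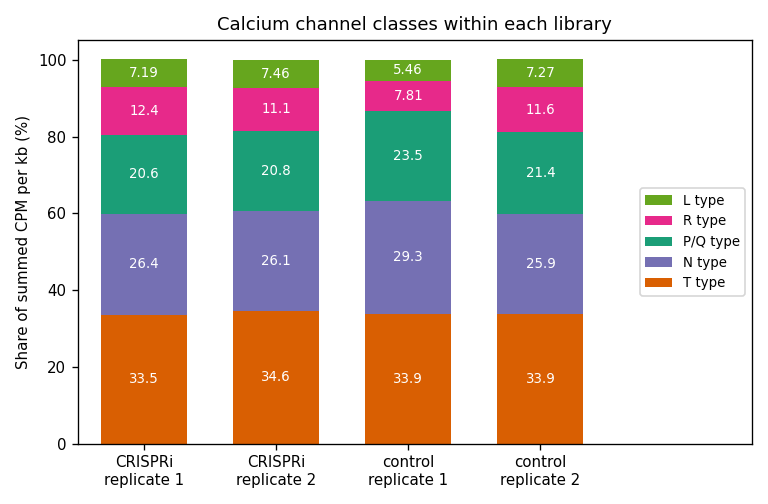
Share of each calcium channel class in the summed level (CPM per kb of longest transcript) of the 10 CACNA1 genes, 1 stacked bar per library, in percent. T type lies between 33.5% and 34.6% in every bar, and R type is 7.81% in control replicate 1 against 11.1% to 12.4% in the others.

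The comparison of CRISPRi with control asked whether silencing the element changed these channels. No CACNA1 gene passed the test. edgeR's quasi-likelihood test was fitted to all genes with Benjamini-Hochberg adjustment and a threshold of 0.05. It took in 8 of the 10 genes, and CACNA1S and CACNA1F did not pass its filter on low counts. Of the 8, 0 were called and 0 had an unadjusted p under 0.05, against a background of 4 called among 15708 tested genes (0.0255%). DESeq2 and limma-voom also called 0 CACNA1 genes, against backgrounds of 0.0731% and 0.0127%. So did edgeR with the replicate number as a block (background 0.267%) and without CRISPRi replicate 1 or 2 (0.106% and 0.206%).

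Log2 fold changes, CRISPRi over control, ran from 0.00 for CACNA1A to 0.23 for CACNA1E. They had a median of 0.11, against 0.01 over all tested genes, and 7 of 8 were above 0, against 52.7% of all tested genes. The narrowest intervals were those of CACNA1A and CACNA1B, followed by CACNA1H and CACNA1C. CACNA1A had a 95% confidence interval of -0.23 to 0.23, and CACNA1B stood at 0.06 (interval -0.16 to 0.29). CACNA1H stood at 0.09 (interval -0.20 to 0.38) and CACNA1C at 0.04 (interval -0.25 to 0.33).

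The others were less certain. CACNA1E had a log2 fold change of 0.23 (SE 0.26, interval -0.45 to 0.91, adjusted p = 1 by edgeR), and CACNA1D one of 0.19 (SE 0.33, interval -0.65 to 1.03). CACNA1I stood at 0.14 (interval -0.33 to 0.61) and CACNA1G at 0.14 (interval -1.30 to 1.57). The interval excluded both a doubling and a halving for 6 of the 8 genes. It did not exclude a doubling for CACNA1D, nor either for CACNA1G.

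**Figure D4:**
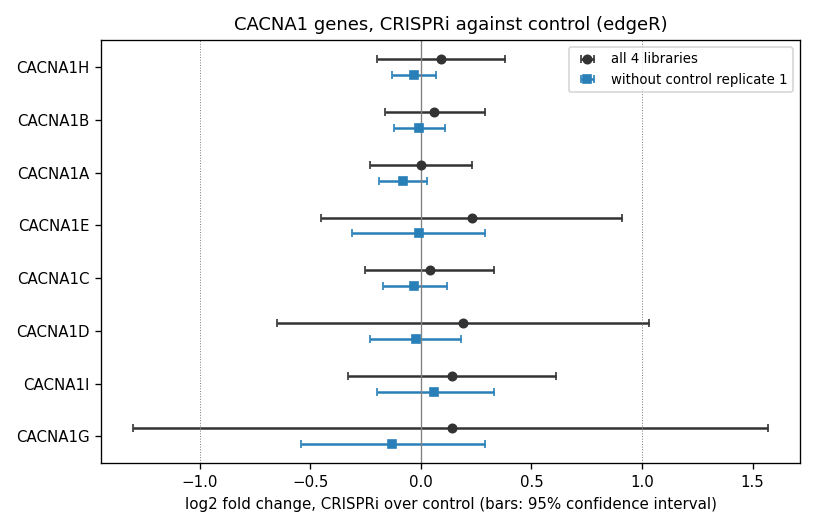
Log2 fold change of the 8 tested CACNA1 genes, CRISPRi over control, by edgeR with 95% confidence intervals, with all 4 libraries (circles) and without control replicate 1 (squares). Dotted lines mark a halving and a doubling; without control replicate 1 the 8 estimates lie between -0.13 and 0.06.

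Without control replicate 1 the same 8 genes lay between -0.13 and 0.06, with a median of -0.02, against 0.00 over all tested genes. Of the 8, 1 was above 0, against 49.9% of all tested genes. CACNA1E was then at -0.01 (interval -0.31 to 0.29) and CACNA1D at -0.02 (interval -0.23 to 0.18). All 8 intervals then excluded a doubling and a halving, and 0 CACNA1 genes were called, against a background of 0.659%. This fit rests on a lone control library, assumed to vary like the CRISPRi pair. Without control replicate 2, which leaves the shallow library as the lone control, CACNA1D was called higher in CRISPRi (log2 fold change 2.03, edgeR adjusted p = 0.0102), with 8.58% of all genes called and 3.61% called higher. CACNA1E was then at 0.95 and CACNA1H at 0.33, and neither passed (edgeR adjusted p = 0.0773 and 0.0711).

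Since the estimates moved with control replicate 1, that library was compared with the other 3 directly. Together the 10 genes took 0.0664% and 0.0633% of all counts under CRISPRi versus 0.0503% (replicate 1) and 0.0664% (replicate 2) in controls. All 8 tested genes were lowest in control replicate 1, as were 50.2% of all tested genes. For CACNA1H, CACNA1E and CACNA1D the Poisson 95% interval of its value lay under all 3 other libraries, against 5.7% of all tested genes. CACNA1E had 62 counts there, where the mean of the others predicts 118, CACNA1D had 4 counts against 16.1 predicted, and CACNA1H had 130 counts against 161 predicted. For the other 5 genes the interval reached the other libraries. These 3 genes were among 7 with at least 10 predicted counts, and across all genes with that many 7.53% lay under the other libraries in this way. The intervals cover counting error only, and there is no second library of this kind. The higher markers of dividing cells moved with it, as did the lower sum of the neuronal markers, at 0.872 of the mean of the other 3 libraries. The neuronal marker ELAVL3 was not lower there, at 525 CPM against 494 to 524 CPM in the others. The part of these markers in the CACNA1 levels was not tested.

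**Figure D5:**
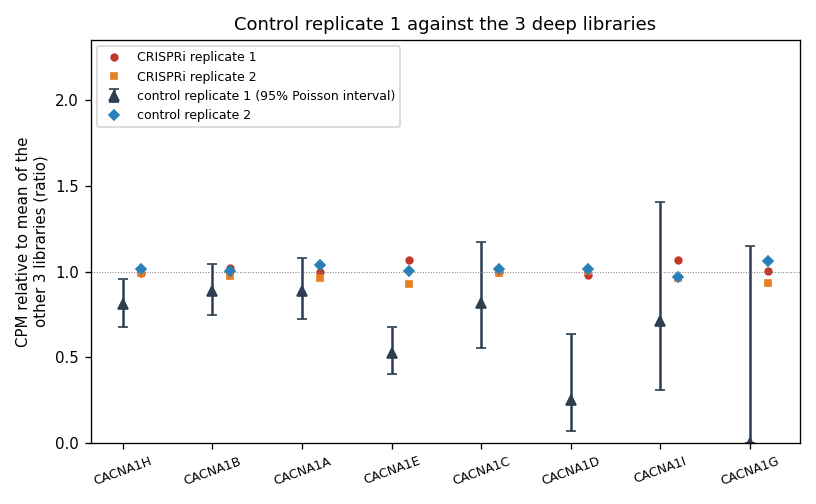
CPM of the 8 tested CACNA1 genes relative to the mean of the 3 deep libraries, with the Poisson 95% interval for control replicate 1 (triangles) and the 3 deep libraries beside it. CACNA1H, CACNA1E and CACNA1D have intervals in control replicate 1 that lie under all 3 deep libraries.

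Genes that work with the pore were read from 8 lists of 113 genes, of which 101 were tested. Of these 0 were called by edgeR, against the background of 0.0255%, and 2 had an unadjusted p under 0.05. The share of all tested genes under that unadjusted p was not counted. The 101 genes had a median log2 fold change of 0.03, against 0.01 for all tested genes. Of them 64 were above 0, against 52.7% of all tested genes. Without control replicate 1 the balance turned, with a median of -0.03 and 36 above 0 against 65 below. Over all tested genes that fit had a median of 0.00, with 49.9% above 0.

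The auxiliary subunits set trafficking and gating of the channel. All 4 beta subunits, which bind the pore inside the cell, were tested and 0 were called (median 0.00). CACNB3 was at 188 and 177 CPM under CRISPRi versus 185 CPM (replicate 1) and 184 CPM (replicate 2) in controls. CACNB4 had the smallest p of the 4, with a log2 fold change of 0.08 (0.00 without control replicate 1). Of the alpha2delta subunits, extracellular proteins that raise channel number at the surface, 3 of 4 were tested and 0 were called. CACNA2D1 was at 226 and 229 CPM under CRISPRi versus 198 CPM (replicate 1) and 165 CPM (replicate 2) in controls. Its log2 fold change was 0.37 (SE 0.10, edgeR adjusted p = 1, unadjusted p = 0.0106). Without control replicate 1 it was 0.47 and passed (edgeR adjusted p = 0.00766), the 1 list gene called in that fit, against 0.659% of all genes. Without control replicate 2 it was 0.23 and did not pass (edgeR adjusted p = 0.154). Of the gamma family, most of which serve AMPA receptors, 6 of 8 were tested and 0 were called. CACNG2, or stargazin, had the smallest p there, with a log2 fold change of 0.30 (0.42 without control replicate 1), and CACNG4 was at 275 and 260 CPM under CRISPRi versus 256 CPM (replicate 1) and 272 CPM (replicate 2) in controls.

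At the active zone 15 of 15 scaffold and release genes were tested and 0 were called, with log2 fold changes from -0.06 to 0.13. SYT1, the calcium sensor of release, was at 814 and 850 CPM under CRISPRi versus 692 CPM (replicate 1) and 840 CPM (replicate 2) in controls. The membrane fusion protein SNAP25 had the smallest p, with a log2 fold change of 0.12 (0.04 without control replicate 1). Among sensors and other regulators 0 of 18 tested genes were called (median 0.07). The calmodulin gene CALM3 was at 1476 and 1509 CPM under CRISPRi versus 1440 CPM (replicate 1) and 1559 CPM (replicate 2) in controls, and PRKACB, a catalytic subunit of protein kinase A, had a log2 fold change of 0.16 (0.09 without control replicate 1).

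Calcium signalling to the nucleus showed 0 called of 20 tested genes, with 8 above and 12 below 0. MEF2C, a transcription factor regulated by calcium, was at 28.7 and 26.9 CPM under CRISPRi versus 38.1 CPM (replicate 1) and 33.8 CPM (replicate 2) in controls. Its log2 fold change was -0.31 (SE 0.11, edgeR adjusted p = 1, unadjusted p = 0.0344), and -0.27 without control replicate 1. The calcineurin subunit PPP3CB was at 156 and 150 CPM under CRISPRi versus 133 CPM (replicate 1) and 148 CPM (replicate 2) in controls.

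Of the genes of calcium extrusion, stores and other entry 0 of 23 tested were called. The pump of the endoplasmic reticulum ATP2A2 was at 604 and 659 CPM under CRISPRi versus 596 CPM (replicate 1) and 619 CPM (replicate 2) in controls, and the plasma membrane pump ATP2B2 had a log2 fold change of 0.14 (0.10 without control replicate 1). Among other channels related to the alpha-1 subunits, such as NALCN and the sodium channels, 0 of 12 tested were called. The sodium channel SCN3A was at 200 and 189 CPM under CRISPRi versus 169 CPM (replicate 1) and 193 CPM (replicate 2) in controls. The lysosomal channel TPCN1 had the smallest p there, with a log2 fold change of -0.47 (-0.35 without control replicate 1).

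Promoter sequence was compared with level for 8 CACNA1 genes with a RefSeq entry, that is, for all but CACNA1G and CACNA1H. Each window held 300 bases around 1 annotated start on GRCh38.p14. CG dinucleotides, which read the same on both strands, numbered 56 in CACNA1D, 54 in CACNA1C, 49 in CACNA1B, 21 in CACNA1A, 9 in CACNA1F, 8 in CACNA1S, 6 in CACNA1I and 5 in CACNA1E, against a median of 14 over 35116 promoters. As many as in CACNA1D were held by 0.276% of all promoters, and as many as in CACNA1E by 70.4%. In the deep libraries CACNA1E, with the fewest, was at 7.7 CPM per kb, and CACNA1D, with the most, at 1.89 CPM per kb. Of the others, CACNA1B, CACNA1A and CACNA1C, above the median number, were at 17.2, 13.8 and 2.88 CPM per kb. CACNA1I, CACNA1S and CACNA1F, below it, were at 1.19, 0.0353 and 0 CPM per kb. The start site in use in these neurons was not measured. For CACNA1D and CACNA1E the window lies inside the GENCODE gene span, which begins at 53328963 and 181317690. These 2 windows are shown as the extremes, with CG in capitals.
CACNA1D (chr3:53494361-53494660, plus strand): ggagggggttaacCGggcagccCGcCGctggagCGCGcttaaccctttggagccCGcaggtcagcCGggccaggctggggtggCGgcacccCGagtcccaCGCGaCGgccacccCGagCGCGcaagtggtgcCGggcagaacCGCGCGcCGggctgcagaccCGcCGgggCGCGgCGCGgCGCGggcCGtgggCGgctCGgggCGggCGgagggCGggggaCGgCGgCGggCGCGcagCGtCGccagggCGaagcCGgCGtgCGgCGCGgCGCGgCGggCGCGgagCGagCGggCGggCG
CACNA1E (chr1:181483267-181483566, plus strand): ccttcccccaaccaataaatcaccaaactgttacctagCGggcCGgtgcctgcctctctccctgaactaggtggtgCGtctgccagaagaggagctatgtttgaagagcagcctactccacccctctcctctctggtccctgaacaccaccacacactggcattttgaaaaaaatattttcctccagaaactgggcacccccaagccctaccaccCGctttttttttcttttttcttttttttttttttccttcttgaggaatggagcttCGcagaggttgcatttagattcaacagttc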

How the data were processed

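The authors' deposited tables hold, for each RefSeq gene row, a raw count (whole numbers) and an FPKM value, and the count was the unit tested. The deposited FPKM entered only an alternative, because 602 to 954 rows per library held a count beside an FPKM of 0. Reads were paired-end, 75 bp, from polyA RNA, per the labels. The submitters' processing notes name hg38, edgeR and limma. No aligner, counter or strand setting is named there (not given in the sources used here), so overlapping genes on opposite strands are uncertain.

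Counts were summed per symbol over all rows, contigs included (5.08% to 5.15% of counts). CPM is the count over the library total. The test of CRISPRi over control was edgeR's robust quasi-likelihood F test (edgeR 4.0.16, R 4.3.3) after filterByExpr and TMM scaling, with group as the only term and a Benjamini-Hochberg threshold of 0.05; DESeq2 1.42.0 and limma-voom (limma 3.58.1) were alternatives. Standard errors and intervals derive from the F statistic. For CACNA1B edgeR raised p to a Poisson bound (0.86, against 0.508 from F). Its interval, taken from F, was not widened to match. Intervals on counts cover counting error only. Labels call the 2 replicates of a group biologically independent and do not pair them. Neither the files nor the RefSeq table give transcript lengths, so GENCODE release 29 lengths were used; for CACNA1E, for example, this is 16171 bp, against 16748 bp implied by the deposited FPKM. Protein identity came from global alignment (Biopython 1.88, BLOSUM62).

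The members, lists and tests were chosen with earlier results of these data known. The named genes are the CACNA1 genes and, by a fixed rule, list genes with the smallest p or highest CPM; not every gene the rule takes is given. Alternatives were other scalings, filters and tools, a replicate block, rows on primary chromosomes only and each library left out. Coding length and a share without CACNA1C were added after the data were seen.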

Additional observations from a re-analysis of the deposited data

How the results depend on the processing

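The 0 called CACNA1 genes stayed 0 under every alternative run but one, with 0 to 1 when 1 library was dropped. The 8 lists had 0 called genes, 0 to 7 when 1 library was dropped and 0 otherwise; the 7 came without control replicate 2, where 8.58% of all genes were called. Of all genes, 0 were called higher under CRISPRi, but 1 by DESeq2, 17 under the replicate block and 2 to 580 when 1 library was dropped. Against 4 called lower, DESeq2 gave 12, limma-voom 2, the replicate block 25 and dropping a library 15 to 798. Dropping a library leaves a lone library in 1 group, assumed to vary like the other group.

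Signs turned only for values that did not pass. CACNA1A, at 0.00 (a small negative value), was at 0.00 with no filter, 0.01 with DESeq2, 0.02 with the replicate block and -0.08 to 0.18 when 1 library was dropped. CACNA1C was at -0.01 with limma-voom and -0.03 to 0.31 when 1 library was dropped. Dropping a library, CACNA1B ran from -0.01 to 0.20, CACNA1D from -0.02 to 2.03, CACNA1E from -0.01 to 0.95, CACNA1G from -0.13 to 9.59 (against 0 counts, so no bound), CACNA1H from -0.03 to 0.33 and CACNA1I from 0.06 to 0.53. CACNG2 ran from -0.10 to 0.42. List medians without control replicate 1, a comparison added after the data were seen, turned to -0.03 for the active zone, for sensors and regulators and for extrusion and stores, and to -0.06 for related channels. Of 95 CACNA1 values recomputed over all alternatives, 81 held their sign and their side of the threshold, 13 turned sign and 1 gained a call. The cause was not tested.

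Class shares, averaged over 4 libraries, moved with the length used and with CACNA1C. L type (6.84%) became 2.43% with the deposited FPKM, 2.54% with primary chromosome rows and without CACNA1C, 8.21% with no length scaling and 8.79% per coding length, and spanned 6.64% to 7.31% when 1 library was dropped. T type (34%) became 35.7% with the FPKM, 35.5% with primary chromosome rows and without CACNA1C, 28.6% with no length scaling and 28.7% per coding length. R type (10.7%) became 17.6% and 17.9%, and P/Q type (21.6%) 19% and 17.8%, with no length scaling and per coding length. The order of classes changed on these 2 scales. In control replicate 1 alone, N type was above T type, at 29.7% against 29.1% unscaled and 30% against 29.3% per coding length. With no length scaling, R type was above P/Q type in CRISPRi replicate 1 (20.1% against 17.9%) and control replicate 2 (18.9% against 18.7%). In CRISPRi replicate 2 each was at 18.2%. R type was below P/Q type in control replicate 1 (13.1% against 21.1%). Per coding length, R type was above P/Q type in CRISPRi replicates 1 (20.4% against 16.8%) and 2 (18.5% against 17.1%). The same held in control replicate 2 (19.2% against 17.5%), but not in control replicate 1 (13.3% against 19.8%). With the FPKM, with primary rows and in the share without it, CACNA1C adds nothing by construction.

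The labels do not tie equal replicate numbers together, and the correlation of their deviations over 15708 genes was -0.0272. With the replicate block CACNA1E was at 0.33 (unadjusted p = 0.0363, edgeR adjusted p = 1), and no CACNA1 call changed. Depth limits the low genes in control replicate 1, where 3 counts equal 3.17 CPM.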
